A study of Gallus gallus with 6 samples.

Results

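The SLC25A genes encode the mitochondrial carriers, the proteins that move metabolites, nucleotides, ions and cofactors across the inner mitochondrial membrane. They were taken as every protein-coding gene of the RefSeq annotation of the chicken assembly GRCg7b whose symbol begins with SLC25A and a number. This gave 36 of 17839 coding genes, on 18 chromosomes. Open chromatin around them was read from ATAC-seq of abdominal fat, an assay that uses Tn5 transposase to cut exposed DNA in nuclei. The labels put 3 libraries in FL and 3 in LL, which are known as the fat and the lean line of a broiler population, NEAUHLF, selected in opposite directions for abdominal fat. Each library came from a different bird, according to the design text, and no treatment, sex or age is stated in the labels. The nuclei came from a cell suspension of the tissue with no stated sorting, so each list mixes fat cells with the other cells of fat, and fewer cells of a type cannot be told apart from less open chromatin per cell.

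Most mitochondrial carriers are built from a repeated module of membrane helices and exchange one solute for another. In fat cells the citrate carrier supplies carbon for fatty acid synthesis in the cytosol, the acylcarnitine carrier brings fatty acids in for oxidation, and the ADP/ATP and phosphate carriers serve the ATP synthase. In chickens the liver makes most of the fatty acids that fat tissue stores. Birds lack UCP1, the carrier that produces heat in mammalian brown fat.

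The authors deposited 1 peak list per library, with 58060, 32066 and 23188 peaks in FL and 73410, 23316 and 15628 in LL, where 3 values for a line stand, here and throughout, in the order of its replicates. The lists hold no read totals. The lowest local background, used as a rough guide to depth, lay between 2.23 and 5.80 fragments over a base in FL replicates 2 and 3 and LL replicate 2, and between 8.10 and 8.73 in the other 3 libraries. A gene end counted as occupied in a library where the list of that library had a peak within 1 kb of the end. The annotation used here gives no strand, so the start of a gene could not be told from its far end, and the end that was occupied in more libraries is called the open end. An end without a peak is one where no peak passed the caller's threshold, which does not show that it was closed. FL replicate 1 and LL replicate 1 stood apart: 5 and 7 of 7 endothelial marker genes and 6 and 7 of 7 fibroblast marker genes had an occupied end there, against 0 to 2 endothelial and 1 to 4 fibroblast genes in the other libraries. Of all coding genes, 69.5% and 72.3% had an occupied end in FL replicate 1 and LL replicate 1, which had the longest lists. In the other libraries the share was 41.5% to 56.6%. The 5 of 7 endothelial genes of FL replicate 1, or 71.4%, were thus near the share of all coding genes there. Fat cell and myeloid markers were also occupied most often in replicate 1 of each line. Of 8 fat cell markers, 8, 6 and 7 had an occupied end in FL and 8, 7 and 5 in LL. Of 7 myeloid markers, the numbers were 6, 4 and 4 in FL and 7, 3 and 2 in LL.

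The carrier genes had open ends in most libraries of both lines. Their ends were occupied for 33, 29 and 27 of 36 genes in FL, where all coding genes stood at 69.5%, 56.6% and 54.7%. In LL the numbers were 33, 27 and 22 of 36, against 72.3%, 48.6% and 41.5% of all coding genes. The carrier genes thus lay above the share of all coding genes in each of the 6 libraries. The mean share was 82.4% ± 8.49 over the FL libraries (SD, n = 3) and 75.9% ± 15.3 over the LL libraries (SD, n = 3). For all coding genes it was 60.3% ± 8.06 and 54.2% ± 16.1. The ranges of the lines overlapped. The distance was smaller against the 14300 coding genes without a LOC symbol, for which the share was 78.3%, 63.3% and 62.8% in FL and 81.7%, 56.0% and 47.6% in LL. When each list was shortened to its best 15628 peaks, the carrier genes stood at 61.1% to 77.8% and all coding genes at 41.3% to 50.5%.

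**Figure D1:**
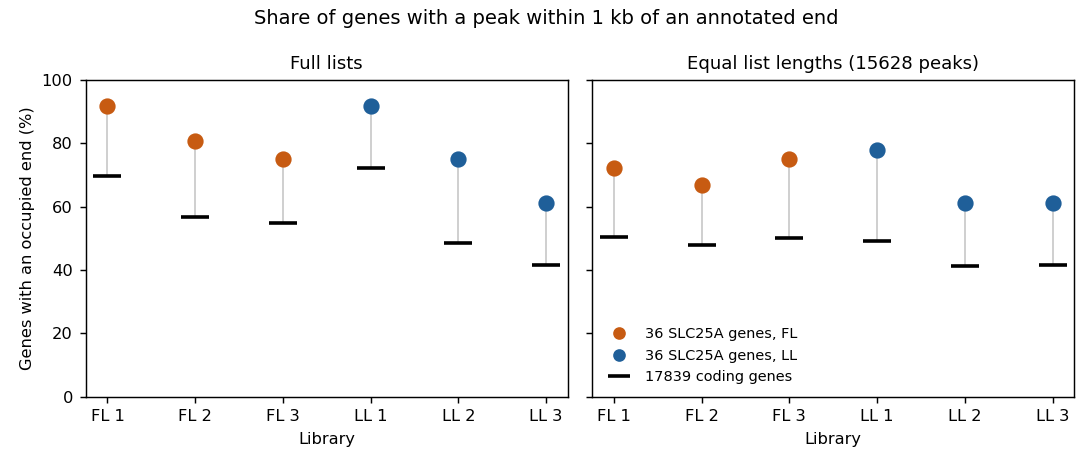
Percentage of genes with an occupied end, within 1 kb of a peak (vertical axis), in each library, for the 36 SLC25A genes (circles, orange for FL and blue for LL) and all 17839 coding genes (black bars), with full lists on the left and equal list lengths on the right. In both panels the circle lies above the bar in each library, from 61.1% against 41.5% in LL replicate 3 to 91.7% against 72.3% in LL replicate 1 in the full lists.

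An end was occupied in all 6 libraries for 20 of the 36 genes, against 35.7% of all coding genes (41.8% of those without a LOC symbol). At least 5 libraries were occupied for 25 genes, against 45.3% of coding genes. A further 5 genes were occupied in 4 libraries, 2 in 2 libraries, 2 in 1 library and 2 in none, the last against 22.8% of coding genes. Without replicate 1 of both lines, the libraries that stood apart, the number open in all the rest was again 20, and the mean was 28 genes in FL and 24.5 in LL. All 20 had the same end occupied in each library, as did 6274 (98.6%) of the 6361 coding genes occupied in all 6 libraries, or 35.2% of all coding genes. At 10 of these 20 the other end had no peak in any library, a count for which no share over coding genes is given. Both ends were occupied together in 8, 5 and 5 genes of FL (background 14.6%, 6.34% and 6.01%) and in 13, 1 and 0 genes of LL (background 20.1%, 4.98% and 3.62%). At least 1 library had both ends occupied for 14 genes, against 22.6%.

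The share of carrier genes with a high-ranking peak was also above the background in each library, in some by little. An end peak in the top 10% of its list by q-value was present for 19, 7 and 7 of 36 genes in FL (background 33.0%, 15.6% and 12.6%) and for 19, 7 and 5 in LL (background 36.3%, 11.5% and 7.89%). For the top 25% the numbers were 25, 19 and 13 in FL (background 49.3%, 35.1% and 28.1%) and 30, 10 and 12 in LL (background 51.9%, 22.9% and 18.3%). The gap was smallest for the top 10% in FL replicate 2, at 19.4% against 15.6%. For the top 25% it was smallest in LL replicate 2, at 27.8% against 22.9%. Shares among genes without a LOC symbol are not given for these ranks.

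**Figure D2:**
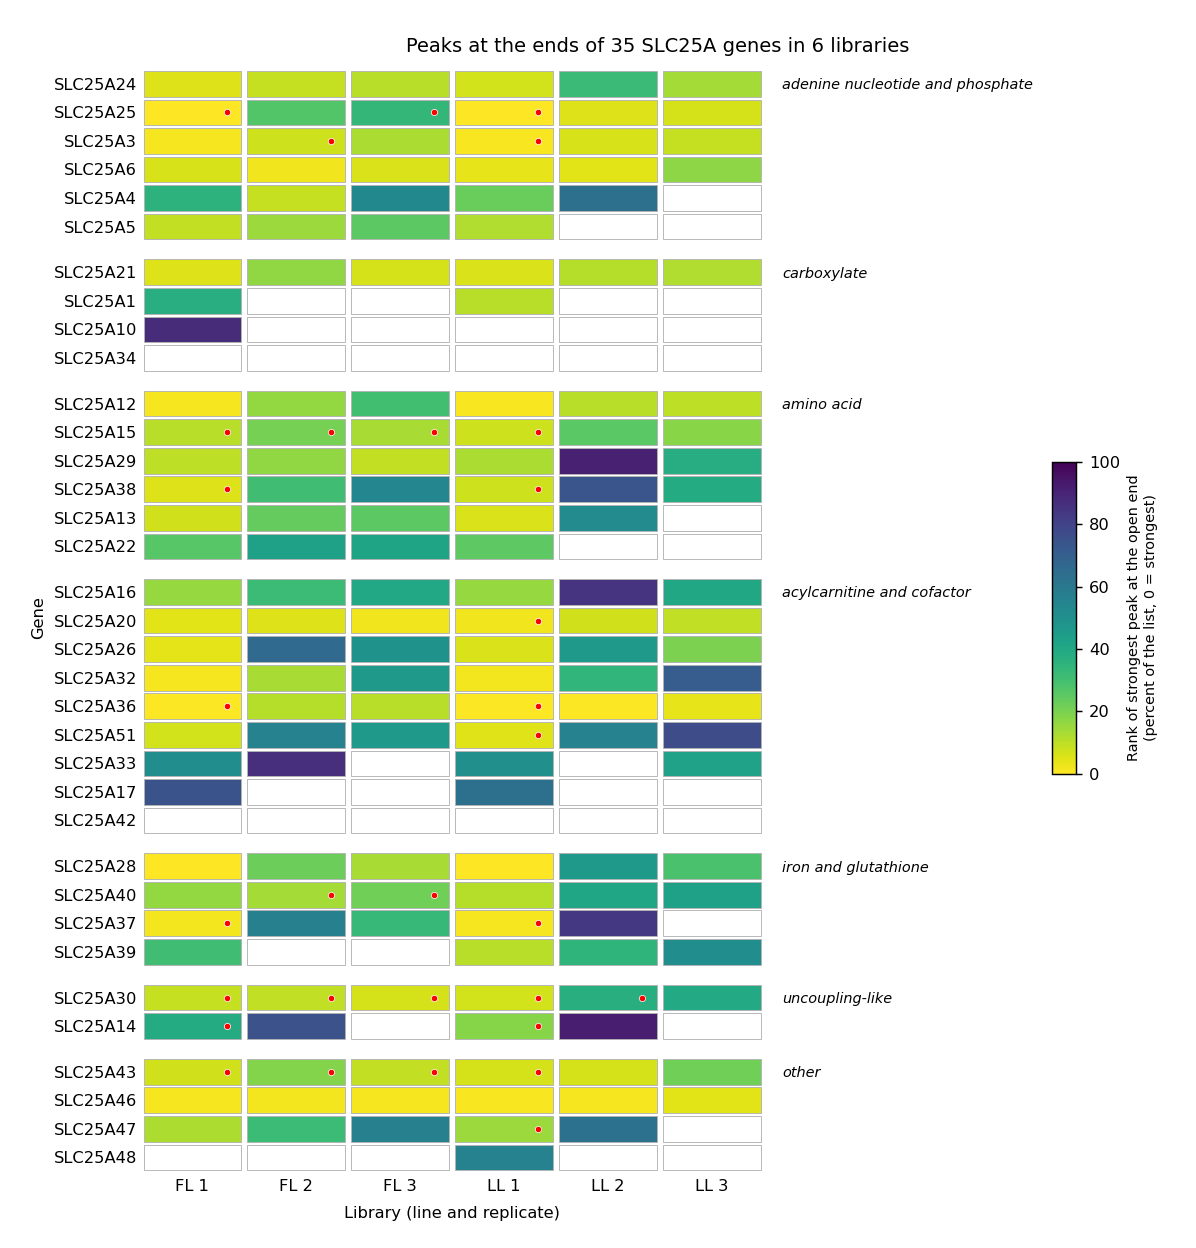
Each row is one of 35 SLC25A genes, grouped by role, and each column a library. A filled cell means a peak within 1 kb of the open end, coloured by its rank in that list (0 is the strongest peak), and a red dot means that the other end also had a peak. Of the rows, 20 are filled in all 6 libraries and 2, SLC25A34 and SLC25A42, in none.

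The summits at these open ends lay within 454 bp of each other at each of the 20 genes open in all 6 libraries, and within 100 bp at 2. Only peaks within 1 kb of the end were taken, which limits the spread, and no spread for other genes is given. For the strongest peak at the open end of the 20 genes, the summits of the 6 libraries spread over a median of 188 bp and at most 454 bp, the latter at SLC25A16, which is linked to coenzyme A transport. In 19 of the 20 genes the 6 peaks had at least 1 base in common. Of the 120 summits, 89 lay within 300 bp of the annotated end, 77 outside the gene and 43 inside it. At SLC25A12 and SLC25A15 all summits lay outside the gene, at a median of 809 and 718 bp, and at SLC25A51 inside it, at a median of 1016 bp from the end.

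**Figure D3:**
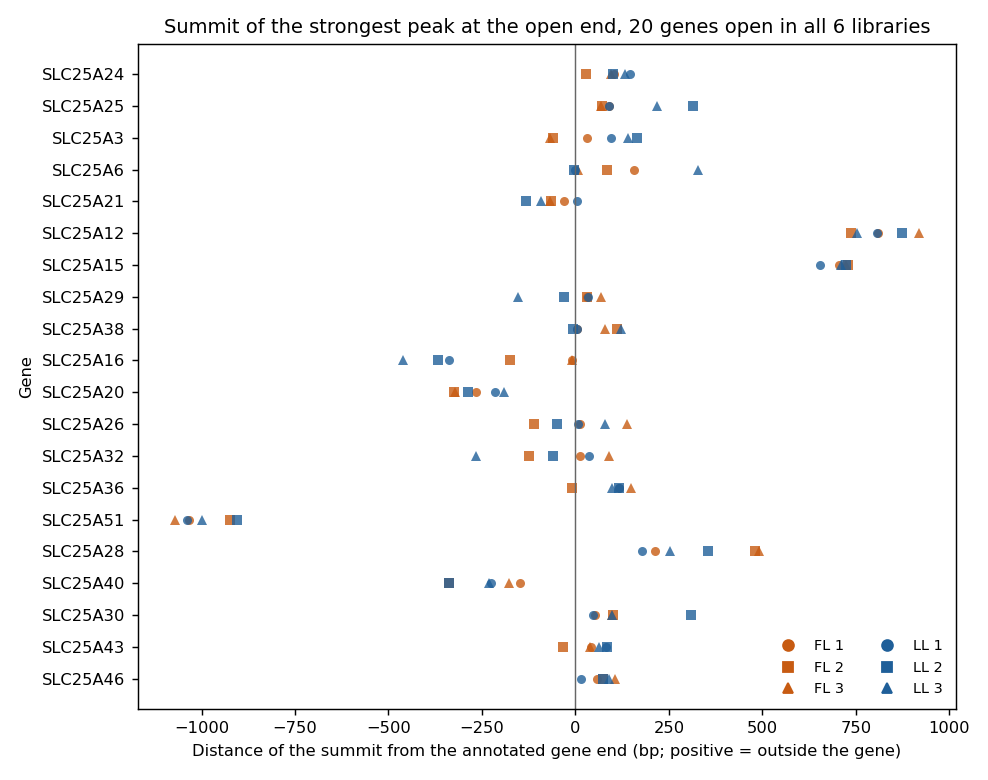
Distance in bp from the annotated gene end to the summit of the strongest peak at the open end (horizontal axis, positive outside the gene) for the 20 SLC25A genes open in all 6 libraries. Colour gives the line and shape the replicate. Summits of one gene lie within 454 bp of each other, and most lie within 300 bp of the end.

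Many of these peaks could belong to a neighbouring gene. For 10 of the 20 genes the peak at the open end also lay within 1 kb of an end of another gene. The matching share over coding genes is not given. DCAF13 ends 103 bp from the open end of SLC25A32, the folate and FAD carrier, HAT1 ends 123 bp from that of SLC25A12, and ENTPD7 ends 241 bp from that of SLC25A28. DBF4, a kinase subunit of DNA replication, ends 331 bp from the open end of SLC25A40. Over both ends, 24 of the 36 genes had an end of another gene within 1 kb, against 55.6% of coding genes. The other 10 genes, among them SLC25A3, SLC25A6, SLC25A24, SLC25A21, SLC25A30, SLC25A43 and SLC25A46, had the peak to themselves.

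All 6 genes of the adenine nucleotide and phosphate carriers had an occupied end in each FL library, and 6, 5 and 4 of them in LL. The share of all coding genes was 69.5%, 56.6% and 54.7% in FL and 72.3%, 48.6% and 41.5% in LL. It also fell in LL replicates 2 and 3, and it is the background for the counts of each role below. SLC25A3, the phosphate carrier of the inner membrane (chromosome 1, 46740825 to 46751565), was among the strongest. The fold enrichment of its peak over local background, a value of the authors' peak caller, was 10.2, 6.19 and 9.08 in FL and 12.1, 5.61 and 4.58 in LL. The summits held 252, 52 and 52 fragments in FL and 394, 64 and 58 in LL. The peak was between 753 and 1404 bp wide and ranked within the top 12.6% of each list by q-value.

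The ADP/ATP carriers export ATP from the matrix in exchange for ADP, and their 3 genes in this annotation differed among themselves. SLC25A6 (chromosome 1, 129261308 to 129264869) was occupied at its lower-coordinate end in all 6 libraries, with fold enrichments of 6.48, 7.84 and 10.03 in FL and 8.83, 5.73 and 3.80 in LL, and ranked within the top 17.0% of each list. RefSeq also lists SLC25A5 as an older name of this gene. SLC25A4 (chromosome 4, 38930868 to 38933690) was occupied in each FL library, at 4.16, 5.80 and 5.12, and in LL replicates 1 and 2, at 6.33 and 3.44. Its peak ranked at 35.6%, 8.82% and 53.3% of the list in FL and at 22.9% and 63.6% in LL replicates 1 and 2, and in LL replicate 3 the nearest peak to either end was 23783 bp away. The uncharacterised gene LOC107051755 ends 103 bp from the open end of SLC25A4.

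SLC25A5 (chromosome 4, 16517730 to 16519706) had a peak at its higher-coordinate end in each FL library but in replicate 1 alone of LL. The fold enrichments were 6.12, 4.51 and 6.77 in FL and 6.70 in LL replicate 1, with 124, 48, 40 and 160 fragments at the summit. The summits fell between 16519800 and 16519820, just outside the gene and in the gap of 951 bp before SLC25A43. In LL replicates 2 and 3 the nearest peak to an end of SLC25A5 was 8016 and 8071 bp away. The same peak counts for the lower-coordinate end of SLC25A43, a carrier whose solute is not established. The other end of SLC25A43, at 16538328, was occupied in all 6 libraries, with fold enrichments from 3.63 to 9.85.

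SLC25A24 and SLC25A25, calcium-regulated carriers that exchange ATP-Mg for phosphate, were occupied in all 6 libraries. The peak of SLC25A24 had fold enrichments of 7.09, 5.49 and 8.81 in FL and 8.01, 3.86 and 3.93 in LL. The peak of SLC25A25 was one of the strongest of all in FL replicate 1, with 502 fragments at the summit and a rank of 0.133%, and in LL replicate 1, with 806 fragments and a rank of 0.0858%. It ranked at 27.3% and 33.7% in FL replicates 2 and 3 and at 5.37% and 6.46% in LL replicates 2 and 3. NAIF1 ends 364 bp from this end.

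Of the 4 carboxylate carriers, 3, 1 and 1 had an occupied end in FL and 2, 1 and 1 in LL. SLC25A21, which carries oxodicarboxylates such as oxoadipate (chromosome 5, 36245154 to 36479303), was the one member open in all 6 libraries. Its fold enrichments were 7.61, 4.53 and 9.83 in FL and 9.88, 5.20 and 4.33 in LL, and the peak ranked within the top 16.4% of each list.

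SLC25A1, the citrate carrier (chromosome 15, 45647 to 59382), had no end peak in 4 of the 6 libraries. The peaks in FL replicate 1 and LL replicate 1, at fold enrichments of 2.23 and 4.39, had summits 517 and 519 bp outside its lower-coordinate end. A region inside the gene, chr15:54758-55658, was nevertheless open in all 6 libraries, 3724 bp from the nearer annotated end. Its fold enrichments were 7.73, 5.76 and 8.65 in FL and 11.5, 4.38 and 3.30 in LL, each higher than at the end of the gene where both were called. A second region, chr15:41524-44372, lay 1275 bp outside the gene and was open in 5 of 6 libraries, all but FL replicate 3. Without strand or exons the position of the transcription start relative to these regions was not determined.

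SLC25A10, the dicarboxylate carrier, which exchanges malate or succinate for phosphate (chromosome 18, 10527996 to 10532961), had an end peak in FL replicate 1 alone. Its fold enrichment was 2.02, at a rank of 87.7% of the list, and MRPL12 ends 400 bp away. In the other 5 libraries the nearest peak was 3724 to 4887 bp from an end. SLC25A34, a carrier of uncertain solute only 1907 bp long (chromosome 21, 4218766 to 4220672), had no end peak, and its nearest peaks were 4495 to 12879 bp away.

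The amino acid carriers had all 6 genes occupied in each FL library and 6, 5 and 4 in LL. The share of all coding genes in LL was 72.3%, 48.6% and 41.5%, so it fell in the same libraries. SLC25A12 and SLC25A13 carry aspartate and glutamate for the malate-aspartate shuttle. SLC25A12 was occupied in all 6 libraries, with fold enrichments of 11.2, 4.68 and 6.47 in FL and 14.2, 5.44 and 4.46 in LL, at a peak that HAT1 shares. SLC25A13 was occupied in all libraries but LL replicate 3, where the nearest peak lay 76226 bp from an end, with fold enrichments from 3.58 to 10.3.

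SLC25A15, the ornithine carrier of the urea cycle, had fold enrichments of 7.96, 5.08 and 10.9 in FL and 13.1, 4.93 and 4.16 in LL. SLC25A38, which carries glycine for haem synthesis, ranged from 2.98 to 8.79 and ranked as low as 74.1% in LL replicate 2. SLC25A29, a carrier of basic amino acids, was also occupied in all 6 libraries, from 2.60 to 9.95, and ranked at 90.9% in LL replicate 2.

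SLC25A22, a glutamate carrier (chromosome 5, 15405339 to 15440979), was occupied in each FL library and, of LL, in replicate 1. The fold enrichments were 4.004, 3.22 and 5.19 in FL and 5.02 in LL replicate 1. The peaks were 731, 159 and 169 bp wide in FL and 700 bp in LL replicate 1. In LL replicates 2 and 3 the nearest peak to either end was 1096 and 1171 bp away, just outside the window. Neither was counted as distal, which leaves them within 1 kb of an end of another gene. No other gene ends within 6879 bp of the open end, so these distances do not show a peak close to it. The line difference of SLC25A22 was 0 libraries with a window of 2 kb at either end and with only peaks of at least 178 bp. At equal list lengths it was 3 libraries. It stayed at 2 libraries with a −log10 q of at least 5, with summits in place of peaks and with a window of 500 bp.

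The carriers of acylcarnitine and cofactors had 9, 8 and 7 of 10 genes occupied in FL and 9, 7 and 7 in LL. SLC25A20, the carnitine and acylcarnitine carrier of fatty acid oxidation (chromosome 12, 11884816 to 11895789), ranked within the top 9.64% of each list. Its fold enrichments were 7.84, 6.08 and 12.1 in FL and 11.3, 5.54 and 4.28 in LL, with 175, 62 and 90 fragments at the summit in FL and 307, 61 and 60 in LL. The summits lay 192 to 326 bp inside the gene, and ARIH2 ends 305 bp from this end. SLC25A36, a pyrimidine nucleotide carrier, ranked within the top 11.2%, with fold enrichments of 12.3, 5.84 and 9.53 in FL and 14.9, 9.25 and 5.28 in LL. PXYLP1 ends 517 bp from the open end of SLC25A36, so this peak could belong to either gene. SLC25A26, which imports S-adenosylmethionine, ranged from 3.30 to 10.6, and its rank reached 65.7% in FL replicate 2. SLC25A32 ranged from 2.98 to 16.1, with its highest values in FL replicate 1, at 13.8, and LL replicate 1. SLC25A16 ranged from 3.01 to 7.05, and SLC25A51, the NAD carrier, from 2.65 to 10.4.

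SLC25A33, a pyrimidine nucleotide carrier like SLC25A36, was occupied in 4 libraries, all but FL replicate 3 and LL replicate 2, with fold enrichments from 2.85 to 3.51. These strongest peaks had no base in common. The summit lay 385 bp outside the gene in FL replicate 2, at a peak 135 bp wide, and 936 to 965 bp outside it in the others. LOC124417348 ends 174 bp from this end. SLC25A17, which serves peroxisomes rather than mitochondria, had an end peak in FL replicate 1 and LL replicate 1, at 3.24 and 4.33. These libraries had the longest lists and the most occupied endothelial, fibroblast, myeloid and fat cell markers. The part of list length or of other cell types in these peaks was not tested. A region inside SLC25A17, chr1:49970212-49971077, was open in all 6 libraries, with fold enrichments of 7.50, 4.88 and 8.02 in FL and 10.9, 3.67 and 3.28 in LL. SLC25A42, a carrier of coenzyme A, had no end peak. Its nearest peak was 1930 to 2526 bp away in each library.

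The 4 genes of iron and glutathione carriers were occupied in 4, 3 and 3 cases in FL and 4, 4 and 3 in LL. SLC25A28, one of the mitoferrins that import iron, was open in all 6 libraries and held the strongest peak of the family in LL replicate 1 after that of SLC25A25. Its fold enrichments were 8.48, 3.51 and 6.57 in FL and 11.0, 3.03 and 3.05 in LL, and the summits held 442, 49 and 68 fragments in FL and 737, 46 and 54 in LL. The other mitoferrin, SLC25A37, was occupied in all libraries but LL replicate 3, from 2.72 to 10.1, with summits 201 to 277 bp outside the gene. SLC25A40, related to glutathione transport, ranged from 3.25 to 9.15.

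SLC25A39, a glutathione carrier (chromosome 27, 2636583 to 2641362), was occupied in all 3 LL libraries and in FL replicate 1. The fold enrichments were 5.24, 3.30 and 2.74 in LL and 3.11 in FL replicate 1. In FL replicates 2 and 3 the nearest peak to an end lay 48656 and 29584 bp away. The peaks of LL replicates 2 and 3 came no closer than 915 and 921 bp. In FL replicate 1 and LL replicate 1 another, weaker peak came within 92 and 103 bp. The summit of the strongest peak of each library lay at least 1043 bp from the end. With a window of 500 bp, or with summits in place of peaks, the difference was 0 libraries. At equal list lengths it was -3 (FL minus LL), and it stayed at -2 with a −log10 q of at least 5, with peaks of at least 178 bp and with a window of 2 kb.

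Of the carriers close to the uncoupling proteins, SLC25A30 was occupied in all 6 libraries, with fold enrichments of 5.76, 5.53 and 9.78 in FL and 6.99, 3.39 and 2.92 in LL. SLC25A14 was occupied in replicates 1 and 2 of each line, at 3.24 and 2.73 in FL and 5.76 and 2.58 in LL.

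By its poorest rank over the 6 libraries SLC25A46 stood highest in the family, although SLC25A36 ranked higher in 4 of them. The SLC25A46 protein sits in the outer membrane and shapes mitochondria (chromosome Z, 47495513 to 47510503). Its peak ranked within the top 4.66% of each list. The fold enrichments were 10.8, 8.21 and 13.5 in FL and 12.9, 7.73 and 5.03 in LL, with 242, 77 and 92 fragments at the summit in FL and 399, 85 and 70 in LL. No other gene ends within 13994 bp of this end. SLC25A47, a carrier known from liver, was occupied in all libraries but LL replicate 3, from 3.09 to 6.50. SLC25A48, linked to choline import, had 1 end peak, in LL replicate 1, at a fold enrichment of 4.84.

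The next question was which carrier genes differed between FL and LL. An end was occupied in at least 2 more FL libraries for 2 of 36 genes, SLC25A5 and SLC25A22 (background 6.21%), and in at least 2 more LL libraries for 1 of 36, SLC25A39 (background 1.08%). These are shares of 5.56% and 2.78% of the family. No carrier gene was occupied in all libraries of one line and none of the other, which 0.275% of coding genes were for FL and 0.0448% for LL. These 2 shares are for the full lists. At equal list lengths SLC25A22 was occupied in the 3 FL libraries and in none of LL, and SLC25A39 in the 3 LL libraries and in none of FL. How many coding genes showed that pattern at equal list lengths is not given, so these 2 genes have no background there. By a difference of 2 or more libraries, 999 coding genes were called for FL in that setting and 272 for LL. In the full lists 26 of the 36 genes had equal numbers of libraries in both lines, 8 had more in FL and 2 more in LL. The matching split of all coding genes is not given here. Their calls of at least 2 more libraries also leaned to FL, with 1107 genes against 192 for LL.

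None of these differences could pass a test. The two-sided exact permutation test of occupied against not occupied, run over all 17839 coding genes, gave p = 0.4 (Benjamini-Hochberg adjusted p = 1) for each of SLC25A5, SLC25A22 and SLC25A39. With 3 libraries per line the smallest p is 0.1, so 0 coding genes had p below 0.05 before or after adjustment. Scaled to 3 libraries per line, the difference of SLC25A5 and of SLC25A22 fell to 1.5 libraries without LL replicate 2 and without LL replicate 3. It rose to 3 without LL replicate 1, the only LL library where they were occupied. That of SLC25A39 changed to -1.5 (FL minus LL) without FL replicate 2 and without FL replicate 3. It changed to -3 without FL replicate 1, the only FL library where SLC25A39 was occupied. Without replicate 1 of both lines these 3 genes were again the ones called, each in both libraries of one line and neither of the other. This follows from the setting, since in the other line each gene was occupied in replicate 1 alone. Over all coding genes, 973 were then called for FL and 142 for LL.

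Of the genes that work with the carriers, 23 were found in the annotation, and 20, 20 and 19 of them had an occupied end in FL and 22, 17 and 13 in LL. All coding genes stood at 69.5%, 56.6% and 54.7% in FL and at 72.3%, 48.6% and 41.5% in LL. Of the 23 genes, 12 were occupied in all 6 libraries, against 35.7% of coding genes. They were ME1, ACACA and FASN of fatty acid synthesis, CPT1A, which makes acylcarnitines, MDH1 of the malate shuttle, MPC2 of the pyruvate carrier, VDAC1 and VDAC3, the outer membrane pores, the carrier relative MTCH1, and TIMM9, TIMM10 and TIMM22, which bring carriers into the inner membrane. MTCH2, GOT1 and CS, the citrate synthase gene, were occupied in each FL library and, of LL, in replicate 1. They were the 3 of 23 genes with at least 2 more FL libraries, against 6.21% of coding genes. No gene of the list had at least 2 more LL libraries, against 1.08% of coding genes. UCP3, an uncoupling protein, and CPT2, which releases acyl groups from carnitine, were occupied in LL replicate 1 alone, and VDAC2 in no library.

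Distal regions, peaks within 50 kb of a gene and away from the ends of all annotated genes, were about as frequent around carrier genes as around other genes. The median carrier gene had 6, 1.5 and 1 in FL and 7.5, 2 and 1 in LL, against 5, 2 and 1 in FL and 7, 2 and 1 in LL for all coding genes. As a ratio to the average coding gene of the same library, the carrier genes had a mean of 0.952 ± 0.167 over the FL libraries (SD, n = 3) and 1.07 ± 0.0166 over the LL libraries (SD, n = 3). The ranges of the lines overlapped, with 1.088, 0.766 and 1.002 in FL and 1.09, 1.066 and 1.058 in LL. The lowest value was that of FL replicate 2. At least 1 distal region was called for 36, 30 and 31 of 36 genes in FL (background 91.7%, 76.9% and 72.7%) and for 36, 29 and 27 in LL (background 92.5%, 73.3% and 60.9%). More regions than the average coding gene were called for 13, 8 and 17 genes in FL (background 37.2%, 32.4% and 46.0%) and for 14, 16 and 13 in LL (background 40.6%, 31.9% and 32.2%). Each of the 6 libraries had at least 1 distal region, not necessarily the same one, for 21 of 36 genes, against 45.1% of coding genes.

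The highest mean ratios belonged to SLC25A26 (2.50), SLC25A33 (2.34), SLC25A21 (2.23), SLC25A25 (1.74) and SLC25A17 (1.61). A mean ratio above 2 was found for these first 3 genes, against 10.5% of coding genes. Long genes have wider windows, and the first 3 span 83561, 53830 and 234150 bp, against a median of 14938 bp for the family. Per 100 kb of window, the median coding gene had 3.93, 1.165 and 0.963 distal regions in FL and 5.79, 0.9825 and 0.830 in LL. SLC25A26 had 22, 4 and 5 distal regions in FL and 26, 6 and 1 in LL, or 5.63 per 100 kb in FL and 5.99 in LL. SLC25A33 had 17, 2 and 6 in FL and 25, 5 and 2 in LL, or 5.42 and 6.93 per 100 kb. SLC25A21 had 8, 7 and 4 in FL and 7, 4 and 5 in LL, or 1.90 and 1.60 per 100 kb. These line values per 100 kb are means of raw counts and are not scaled for list length. The mean ratios, which are scaled, were 2.72 in FL and 2.27 in LL at SLC25A26. They were 2.335 in each line at SLC25A33, and 2.21 in FL and 2.25 in LL at SLC25A21. SLC25A46 had the lowest ratio, with 1, 0 and 0 distal regions in FL and 2, 0 and 1 in LL.

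**Figure D4:**
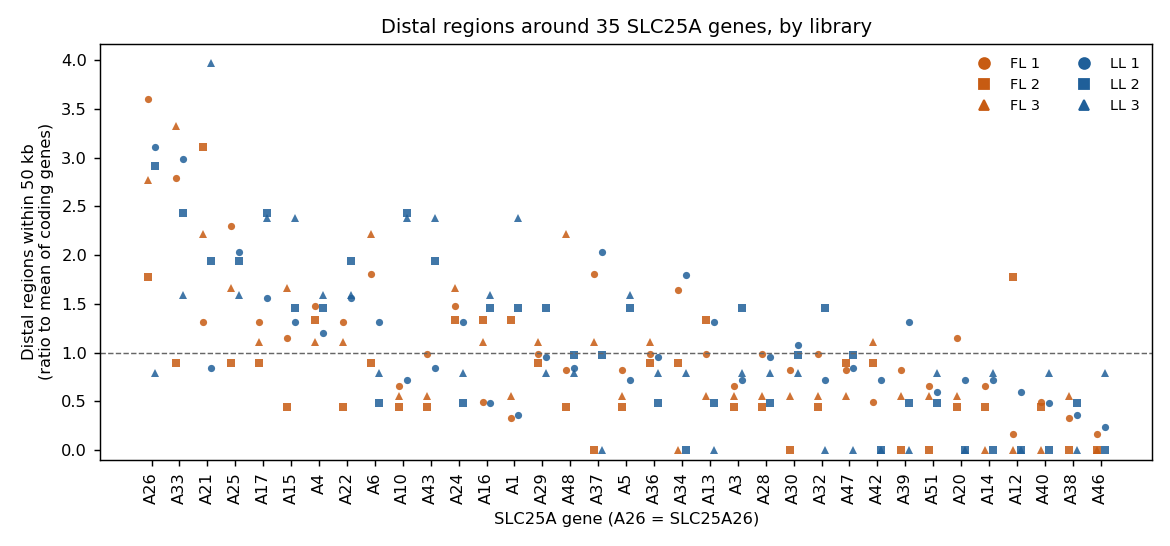
Number of distal regions within 50 kb of each of 35 SLC25A genes, as a ratio to the average coding gene of the same library (vertical axis), ordered from the highest mean on the left. Colour gives the line and shape the replicate, and the dashed line marks the average coding gene. SLC25A26 has the highest mean ratio, 2.50, and SLC25A46 the lowest, and libraries of one line overlap those of the other at most genes.

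Merged over the 6 libraries, 371 distal regions lay within 50 kb of a carrier gene, and 14 of these (3.77%) were open in all 6 libraries, against 2.91% of all 81476 distal regions. A carrier gene was the nearest coding gene, ties included, for 95 of the 371. Of the 14, 4 lay inside a carrier gene, and the nearest coding gene of the other 10 was another gene. The 4 were the regions inside SLC25A1 and SLC25A17 given above, chr5:36434711-36436049 in SLC25A21, with fold enrichments from 3.94 to 12.1, and chr17:5479314-5480637 in SLC25A25, from 3.67 to 9.67. Among the other 10, chr5:15363687-15364276 lies 41063 bp from SLC25A22, and its nearest gene is PNPLA2, the triglyceride lipase of fat cells. None of the 371 regions was open in all libraries of one line and none of the other. Over all distal regions these were 149 for FL (0.183%) and 71 for LL (0.0871%), shares at which fewer than 1 region of each kind falls among 371.

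Between the lines, the ratio of distal regions did not overlap for 5 of 36 genes, which all reached the smallest p of 0.1 in the two-sided exact permutation test (background 8.04%, adjusted p = 1 for each). It was higher in LL at SLC25A3, SLC25A10, SLC25A17 and SLC25A22 (background 4.0% for this direction) and higher in FL at SLC25A24 (background 4.04%). At SLC25A10 the libraries had 4, 1 and 1 regions in FL and 6, 5 and 3 in LL, and the mean ratios were 0.552 and 1.84. At SLC25A17 they had 8, 2 and 2 in FL and 13, 5 and 3 in LL, with mean ratios of 1.10 and 2.12. At SLC25A24 they had 9, 3 and 3 in FL and 11, 1 and 1 in LL, with mean ratios of 1.49 and 0.865. These are differences of a few regions per library, and no coding gene passed after adjustment. At each of the 5 genes most of the merged regions had another coding gene nearest, and at SLC25A10 all had.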

How the data were processed

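ATAC-seq peak lists of 6 chickens, 3 FL and 3 LL, were used, 1 deposited list per library. Per the submitters' processing notes, the tools were MACS3 3.0.0b1, bedtools 2.30.0, BWA, SAMtools, Trim Galore and FastQC, with assembly GRCg7b. For their settings, for duplicate removal and for a Tn5 shift, nothing is given in the sources used here. For each peak the deposited lists give a score, a fold enrichment (a ratio to local background within 1 library), and −log10 p and −log10 q. The score is 10 times −log10 q for all but 0.0172% to 0.0518% of the peaks of a list, and the deposited −log10 q starts between 2.01 and 2.03. Fold and rank by q-value describe peaks within 1 list only.

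Summit fragments and background were solved from fold and −log10 p, within a relative tolerance of 0.0001, for 100% of peaks, after a test on simulated data. Gene ends came from the RefSeq table of GRCg7b, which has no strand, exon or sequence, so the planned analysis of start sites, promoter sequences and protein motifs was not run. A peak touching the window by 1 bp counted. FL and LL were compared per coding gene by two-sided exact permutation of 20 assignments, with Benjamini-Hochberg adjustment (Python 3.11.15, numpy 2.4.6, pandas 2.3.3). Deviations of occupancy from the line mean, over coding genes, correlated between same-numbered libraries at 0.460, 0.153 and 0.131, so the numbers were treated as pairs in an alternative. FL replicate 2 correlated more with LL replicate 3, at 0.187, and FL replicate 3 as much with LL replicate 2, at 0.131. The labels do not say that the numbers mark a pair or a shared batch.

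Members and lists were chosen with earlier results of these data known. Named genes are those with at least 2 more libraries in one line, up to 3 per role open in all 6 libraries with the best poorest rank, those open in at most 1 library, the 5 with most distal regions, and SLC25A1, SLC25A4, SLC25A5, SLC25A6, SLC25A10 and SLC25A20. The others, PNPLA2 and the background without LOC symbols were chosen after their values were seen. Settings tried were −log10 q of at least 5, equal list lengths, peaks of at least 178 bp, summits, other windows, single libraries left out, and replicate 1 of both lines left out. The last was chosen after the data were seen. Marker lists of other cell types covered 7 endothelial, 7 fibroblast, 7 myeloid, 6 skeletal muscle and 5 mesothelial genes. Occupied ends numbered 2 to 7, 1 to 3 and 2 to 4 for the last 3. The values of 1 member are not reported here singly, in the text or in the figures, and it stays in the counts.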

Additional observations from a re-analysis of the deposited data

How the results depend on the processing

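The number of carrier genes open in all libraries ranged from 14 to 22 over 7 alternatives, against 20, and from 20 to 25 with 1 library left out. The mean number occupied in FL moved from 29.7 to 25.7 at equal list lengths, and stayed between 27.7 and 31 in the other settings and between 28 and 31 with 1 library left out. In LL it ranged from 24 to 29.7, against 27.3, and from 24.5 to 30 with 1 library left out. The genes with at least 2 more FL libraries numbered 1 instead of 2 with peaks of at least 178 bp and 3 with a window of 500 bp, and those with more LL libraries 0 instead of 1 with a window of 500 bp. With 1 library left out these numbers ranged from 0 to 2 and from 0 to 1. Over all coding genes the numbers were 1107 and 192, and 589 and 385 with peaks of at least 178 bp. With 1 library left out the first of these ranged from 233 without LL replicate 2 to 2000 without LL replicate 1 (253 without LL replicate 3), and the second from 59 without FL replicate 3 to 492 without FL replicate 1 (70 without FL replicate 2 and 416 without LL replicate 3). The mean distal ratio in LL moved from 1.07 to 1.04 with −log10 q of at least 5, to 1.005 at equal list lengths and to 1.12 with a distal window of 100 kb, each by more than the small SD, and ranged from 1.06 to 1.08 with 1 library left out. In FL it ranged from 0.884 to 1.02, and from 0.884 to 1.045 with 1 library left out. The causes were not tested. The replicate block (pairing of same-numbered libraries by sign flips, smallest exact permutation p 0.25) left 0 coding genes below an adjusted p of 0.05, for end occupancy and for distal regions, as without it. Neither form of the test can reach 0.05 with 3 libraries per line, so this outcome was fixed in advance. No other result was run under the replicate block. The alternative of start sites alone was not run, since strand was not used here. No read totals were used here, and list length did not follow the lowest background: LL replicate 3 had the highest, 8.73 fragments, and the fewest peaks, 15628.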
